A study of Mus musculus with 8 samples.

Results

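Small leucine-rich proteoglycans are secreted matrix proteins in which a curved stack of leucine-rich repeats carries chains of chondroitin or dermatan sulphate, keratan sulphate, or no chain at all. They bind collagen fibrils and set fibril width and spacing, and several also hold growth factors of the TGF-beta family in the matrix. Matrix Gla protein is unrelated in sequence: it is a small secreted protein whose glutamates are carboxylated in a vitamin K dependent step, and it is known as an inhibitor of calcification and as a binding partner of bone morphogenetic proteins. The members described here are Dcn, Bgn and Aspn (class I), Lum, Fmod, Prelp and Omd (class II), Ogn (class III), and Mgp. They were taken by gene symbol, with every probe set annotated to one of these 9 genes, and this gave 20 of the 45037 probe sets that are not array controls. The genes were chosen on known function but with their log2 signal difference between the treatment groups already seen. The differences below are therefore a description, and where a call is given for a member it is not read as a test.

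The cells were LB-22, an immortalized line of embryonic mouse kidney. They were expanded at 33 °C with interferon gamma, and at transfection all of them, controls included, were moved to 37 °C without interferon. One group received 25 pmol of scrambled control siRNA and the other 25 pmol of an siRNA against Wt1, each for 6 h, and total RNA was taken at 48 h and hybridized to 8 Mouse 430_2 arrays, 4 per group. The labels do not say whether replicates were separate cultures, so the spread between arrays may be technical.

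Signals are MAS5 values on a linear scale, and every array had been scaled to the same trimmed mean. Wt1, which encodes a zinc finger transcription factor, was at 20.5% of control in the Wt1 siRNA group (p = 0.0286 by an exact two-sided permutation test over the arrays, which can go no lower at this group size). The array carries 27 probe sets for bacterial (Bacillus subtilis) control transcripts, and the highest of their signals lay between 121.6 and 227.2 depending on the array. A signal above that highest value on the same array is called above background here.

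Of the 20 probe sets, 7 were above background on all 8 arrays, 7 on some arrays and 6 on none. The 7 belonged to 4 genes: the brighter Dcn probe set, all 3 Bgn probe sets, both Ogn probe sets and the single Mgp probe set. Dcn, Bgn, Ogn and Mgp were therefore the members that could be followed across the treatment. Lum, Fmod, Aspn, Prelp and Omd had no probe set above background on every array, so they have no fold change here.

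**Figure D1:**
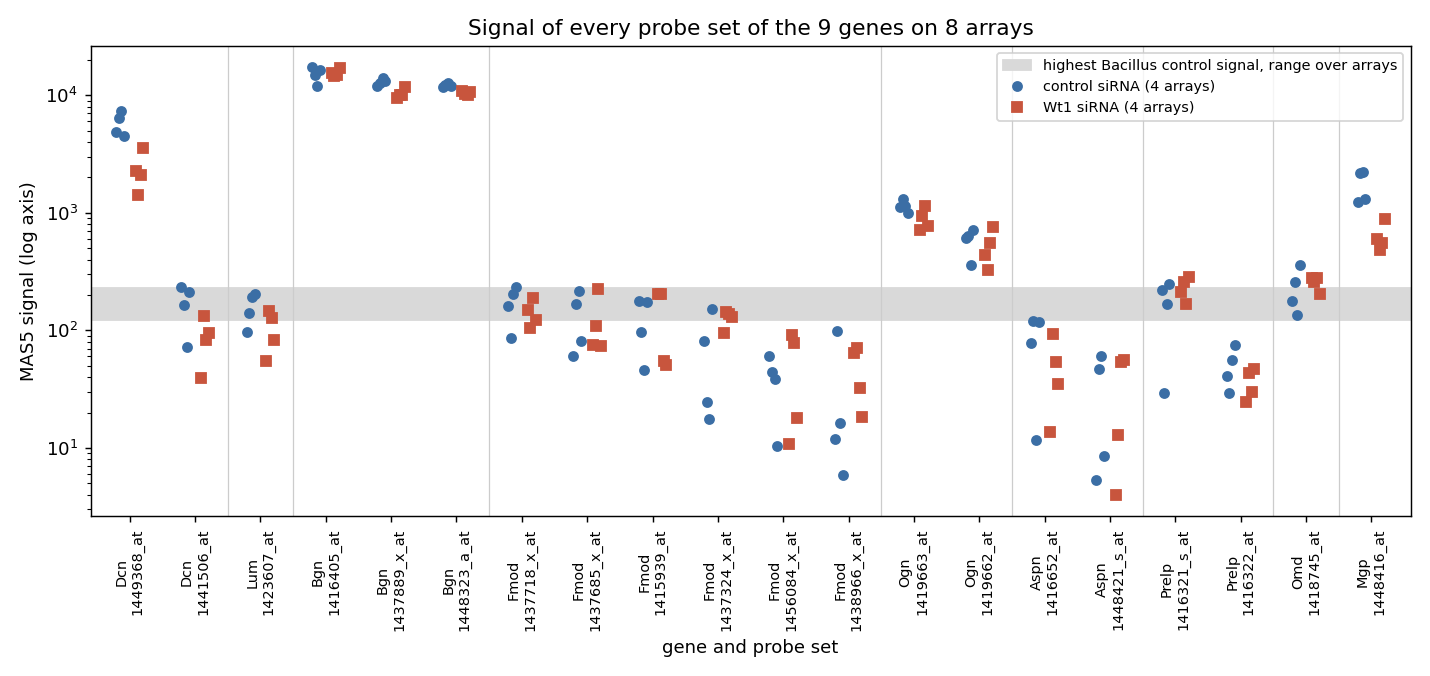
MAS5 signal (log axis) of each of the 20 probe sets on the 4 control siRNA arrays (circles) and the 4 Wt1 siRNA arrays (squares); the grey band spans the highest Bacillus control signal of each array, 121.6 to 227.2. The Dcn probe set 1449368_at and the Mgp probe set are lower on every Wt1 siRNA array than on any control array, the first probe set of Bgn overlaps between groups, and the probe sets of Lum, Fmod, Aspn, Prelp and Omd lie in or near the band or under it.

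Dcn encodes decorin, a class I member with a single chondroitin or dermatan sulphate chain that coats collagen fibrils and binds TGF-beta. Its brighter probe set (1449368_at) read 4873.8, 6439.6, 7393.6 and 4470.2 on control arrays 1 to 4. It read 2248.6, 1412.6, 2096.5 and 3577.6 on Wt1 siRNA arrays 1 to 4. The groups did not overlap, and the nearest pair, control array 4 and Wt1 siRNA array 4, differed by 1.25-fold. The means were 5794 ± 1363 and 2334 ± 905 (SD, n = 4 each), and the Wt1 siRNA group had 38.9% of the control signal by geometric mean (log2 difference -1.36 ± 0.23, SE of the limma fit). The difference ranked 59 from the lowest among 9096 tested genes. Within the treated group the spread was wide, with array 4 at 2.53 times array 2.

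The other Dcn probe set (1441506_at) was at or under background. It read 232.3, 165.1, 71.5 and 211.9 on control arrays and 39.1, 133.0, 82.3 and 94.1 on Wt1 siRNA arrays. Only 2 of its 8 values were above background, both on control arrays, and the groups overlapped, so it gives no fold change.

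Mgp encodes matrix Gla protein. Its probe set read 1237.4, 2197.1, 2214.6 and 1298.1 on control arrays 1 to 4. It read 593.7, 482.2, 554.2 and 881.1 on Wt1 siRNA arrays 1 to 4. Every control array was above every Wt1 siRNA array, and the lowest control signal was 1.40 times the highest treated one. The means were 1737 ± 542 and 628 ± 175 (SD, n = 4 each), and the treated group had 36.6% of control by geometric mean (log2 difference -1.45 ± 0.23, SE). This difference ranked 43 from the lowest among the tested genes.

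Dcn and Mgp also varied alike inside each group, which the choice of members did not use. Among controls, arrays 2 and 3 were above arrays 1 and 4 for both genes. Among Wt1 siRNA arrays, both genes ran from array 2 at the lowest through arrays 3 and 1 to array 4 at the highest. This treated order was not particular to them, since the brightest Bgn probe set had it too, over a narrower range (1.17-fold). Its control order differed, with arrays 3 and 2 below arrays 4 and 1. Against their control means on the log2 scale, Dcn was at -0.67 and Mgp at -0.92 on array 4, whereas on array 2 they were at -2.01 and -1.79. The same placing, with control arrays 2 and 3 above 1 and 4 and with Wt1 siRNA array 4 highest and array 2 lowest, was found in 222 of the tested genes (2.44%). The placing was read from Dcn and Mgp themselves, so both are among the 222 and the share is only a description. Wt1 itself was also highest on array 4 within its group (1913.9), but its lowest signal was on array 3 (1316.8) rather than array 2 (1531.0).

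**Figure D2:**
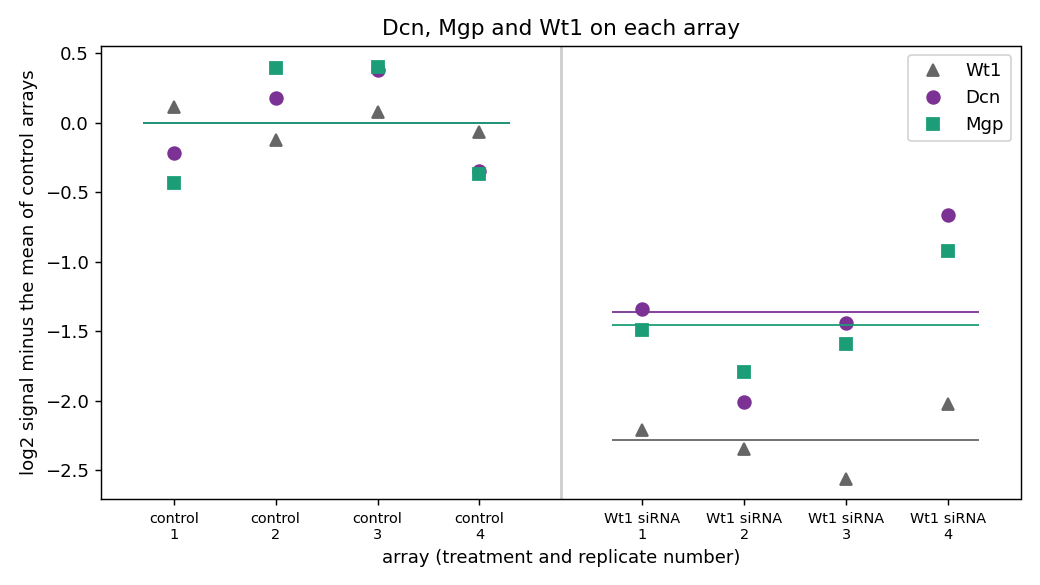
Log2 signal of Wt1 (triangles), Dcn (circles) and Mgp (squares) on each array, each gene minus its own mean over the 4 control arrays; horizontal lines are group means. On Wt1 siRNA arrays Dcn and Mgp run together from -2.01 and -1.79 (array 2) to -0.67 and -0.92 (array 4).

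Likeness of profile was measured as the root mean square distance between 2 genes over the 8 arrays, each gene taken as log2 signal minus its control mean. Mgp was the second nearest of 9095 genes to Dcn, and Dcn the second nearest to Mgp, at a distance of 0.18, against a median distance of 1.07 from Dcn and 1.11 from Mgp. Nearest to Dcn was Bnc2, which encodes a zinc finger protein (distance 0.18). Cp (0.23), the ceruloplasmin gene, the growth arrest gene Gas1 (0.24) and the podocalyxin gene Podxl (0.27) followed. Nearest to Mgp was the carbonic anhydrase gene Car7 (0.17), followed after Dcn by Gas1 (0.21), Bnc2 (0.22) and Alcam (0.26), which encodes a cell adhesion molecule. The distance contains the treatment difference itself, so genes as low as Dcn and Mgp in the treated group are favoured.

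Bgn encodes biglycan, the class I member closest to decorin, which usually carries a pair of chondroitin or dermatan sulphate chains. Its 3 probe sets did not give the same picture. The brightest (1416405_at) read 17293.1, 14731.4, 11955.3 and 16527.4 on control arrays and 15576.6, 14586.4, 14843.8 and 17051.4 on Wt1 siRNA arrays. Here the treated arrays lay wholly inside the control range, with means of 15127 ± 2371 and 15515 ± 1107 (SD, n = 4 each) and a log2 difference of 0.05 ± 0.10 (SE).

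A second Bgn probe set (1448323_a_at) read 11695.7, 12141.9, 12812.9 and 11881.5 on control arrays and 10856.1, 10236.7, 10045.7 and 10684.2 on Wt1 siRNA arrays. The groups did not overlap and the treated group was at 86.2% of control. The remaining one (1437889_x_at), of a kind that can match several transcripts, read 12035.7, 12674.5, 14135.1 and 13319.5 against 9524.1, 10136.0, 10150.2 and 11727.7. It did not overlap either and was at 79.5% of control. For Bgn the sign therefore depended on the probe set, and the mean over the 3 was -0.17 on the log2 scale. Each of these differences was smaller than the distance of Dcn or Mgp from control.

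Ogn encodes osteoglycin, also called mimecan, a class III member with fewer repeats. Its brighter probe set (1419663_at) read 1113.4, 1299.4, 1136.7 and 990.0 on control arrays and 719.5, 946.3, 1144.4 and 772.3 on Wt1 siRNA arrays. Of the treated arrays, 1, 2 and 4 were below every control, while array 3 was above controls 1, 3 and 4. The treated group was at 78.0% of control (log2 difference -0.36 ± 0.16, SE). The other Ogn probe set (1419662_at) read 611.3, 632.4, 358.6 and 711.1 against 439.0, 328.1, 551.5 and 764.7, with full overlap and the treated group at 88.6% of control. On this second probe set Wt1 siRNA array 4 was the highest of all 8 arrays, whereas on the first it was the second lowest.

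**Figure D3:**
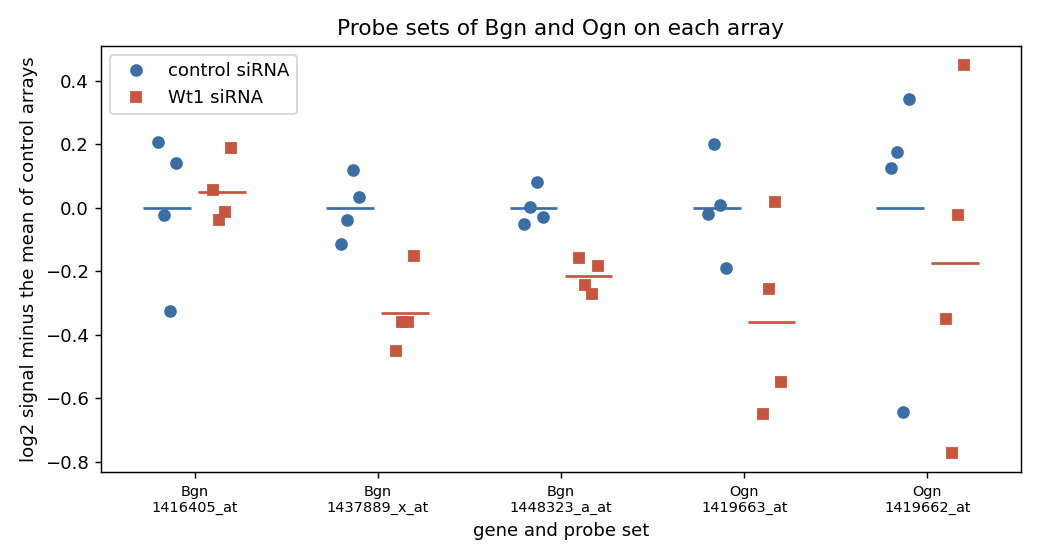
Log2 signal minus the mean of the control arrays for the 3 Bgn and 2 Ogn probe sets, 4 control siRNA arrays (circles) and 4 Wt1 siRNA arrays (squares) each, with group means as lines. The first Bgn probe set is at 0.05 and the other 2 at -0.33 and -0.21, and both Ogn probe sets overlap between groups.

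The fit across all features was limma on log2 signal, with 1 probe set per gene and the brighter part of the named genes tested. Dcn, Bgn, Ogn and Mgp entered it, and the other 5 members were too dim. The dimmest member tested was Ogn, with a geometric mean signal of 997 over the arrays, and the brightest left out was Omd at 235, against a lowest tested mean of 664. Of the 4, Dcn and Mgp passed an adjusted p under 0.05, both lower, and Bgn and Ogn did not. Ogn passed only when Wt1 siRNA array 3, the treated array that overlapped its controls, was left out (log2 difference -0.48). Over all 9096 tested genes 37.3% passed in either direction, 18.8% higher and 18.5% lower, and in 18.3% every control array was above every Wt1 siRNA array. Nothing is read from the members' calls or their count, since this contrast was in view when they were proposed. The log2 differences of the 4 were unlike, from -1.45 for Mgp to 0.05 for Bgn, so their median of -0.86 describes none of them. Centring each array on its median raised all differences by 0.11 and left Dcn at -1.25, Mgp at -1.34, Ogn at -0.25 and Bgn at 0.16.

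The class II members were at or near background throughout. Lum encodes lumican, a keratan sulphate proteoglycan of cornea and tendon, and read 97.4, 140.3, 190.6 and 202.3 on control arrays and 54.8, 147.3, 127.4 and 83.2 on Wt1 siRNA arrays. Its values on control arrays 3 and 4 were above background and the other 6 were not. Fmod encodes fibromodulin, which guides collagen cross-linking. Across its 6 probe sets the signal ran from 5.9 to 234.0, and no probe set was above background on more than 4 arrays.

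Prelp encodes a heparin-binding member of cartilage and basement membranes. Its probe set 1416321_s_at read 220.0, 29.2, 166.0 and 248.3 on control arrays and 213.2, 258.4, 167.2 and 285.4 on Wt1 siRNA arrays. All 4 treated values and 2 of the 4 control values were above background, but the groups overlapped, and its other probe set (1416322_at, 24.7 to 75.0) was below background on all arrays. Omd encodes osteomodulin, a bone matrix member, and read 178.7, 260.1, 136.3 and 360.9 on control arrays and 281.0, 258.3, 277.6 and 204.9 on Wt1 siRNA arrays. It was above background on 3 arrays of each group, and the treated values lay inside the control range. Aspn encodes asporin, a class I member that lacks the usual attachment site for a sugar chain, and both of its probe sets were below background on all 8 arrays, at 4.0 to 121.3.

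The members lie in conserved gene clusters, and detection differed within them. In the RefSeq order of protein-coding genes (GRCm38.p6), Dcn is followed on chromosome 10 by Lum, Kera and Epyc. Dcn was bright, while Lum, Kera (8.8 to 102.6) and Epyc (10.8 to 153.2) were above background on 2, 0 and 2 of 8 arrays. On chromosome 13 the order is Ecm2, Aspn, Omd and Ogn. There Ogn was above background on all arrays, and Ecm2 (127.8 to 325.7), Aspn and Omd on 5, 0 and 6. On chromosome 1 Optc, Prelp and Fmod adjoin, and Optc (25.6 to 202.6) was above background on 1 array, so no gene of that cluster was clearly detected. Mgp on chromosome 6 and Bgn on chromosome X have no other member beside them.

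Upstream sequence from RefSeq (GRCm38.p6) was matched to 6 of the 9 members: Bgn, Fmod, Ogn, Aspn, Prelp and Omd. Dcn, Lum and Mgp had no sequence here, so no motif was searched for them. The sequences of Bgn and Ogn are shown because both genes were above background on every array. Each is the 250 bases before the annotated start, plus strand.
Bgn, chrX:73483351-73483600: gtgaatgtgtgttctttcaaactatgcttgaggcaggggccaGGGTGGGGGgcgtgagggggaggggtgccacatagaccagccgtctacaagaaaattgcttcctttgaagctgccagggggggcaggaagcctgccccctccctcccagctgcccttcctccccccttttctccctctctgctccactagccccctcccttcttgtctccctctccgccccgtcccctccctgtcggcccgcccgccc
Ogn, chr13:49607765-49608014: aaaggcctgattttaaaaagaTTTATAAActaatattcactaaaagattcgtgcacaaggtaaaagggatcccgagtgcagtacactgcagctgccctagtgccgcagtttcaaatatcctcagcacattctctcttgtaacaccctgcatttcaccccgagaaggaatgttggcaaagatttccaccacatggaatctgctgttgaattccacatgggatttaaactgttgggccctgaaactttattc
The capitals mark a match to the G-rich motif GNGTGGGNG of WT1 and EGR proteins in Bgn (positions -208 to -200), and overlapping matches on both strands to the TATA box letters TATAAA in Ogn (positions -229 to -222), which lie far upstream of where a TATA box usually sits.

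These windows differ in composition. Bgn had 64.4% G and C, above 81.6% of the 32851 RefSeq windows of the same length, and Ogn had 42.0%, above 15.9% of them. Among the members with a window, GNGTGGGNG on either strand was found in Bgn and in Fmod, and 12.7% of all windows hold it. TATAAA was found in Ogn and Aspn, and 12.4% of all windows hold it. The AP-1 letters TGANTCA were found in none of the 6, and 6.75% of all windows hold them. In all 14 motifs were searched, counting a motif and its reverse complement once, and the others are given by their letters with the share of all windows that hold them on either strand. Those found in none of the 6 were CACGTG (6.02%), GCGTGGG (4.3%) and AGACAG (20.3%). Those found in 1 member were CATTCC (12.6%) and TTTAAANN (12.1%), both in Ogn, and GGGCGG (32.7%) in Bgn. GGGNGGGNG (22.1%) was found in Bgn and Prelp, CAGAC (42.2%) in Fmod and Prelp, CCTCCC (38%) and CTCCCTC (11.9%), which can overlap, in Bgn, Fmod and Prelp, and CACCC (52.0%) in all members with a window but Omd. A match of letters is not evidence of binding.

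The genes that build, cut or partner these proteins went in both directions. Lists for them were drawn up with earlier results of these data known, and 70 of their genes were tested. Of these 18 rose, 25 fell and 27 did not pass, with a median log2 difference of -0.13. Over all 9096 tested genes 18.8% were higher and 18.5% lower, with a median of 0.02. These shares stand beside every list count below. With arrays centred on their medians 17 rose and 15 fell. Over all tested genes the same centring took the lower ones from 1687 to 785, so that drop was not particular to the lists.

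Of the genes for the enzymes that build decorin and biglycan chains and for the transporters that supply them with sulphate, 20 were tested, and 4 rose, 5 fell and 11 did not pass (4 rose and 2 fell with centring). The transporter gene Slc26a2 was among the 4 that rose (1.36-fold), and Fam20b was among the 5 that fell (73.2% of control). Dse, the epimerase that turns chondroitin into dermatan sulphate, fell to 40.5% of control (1570 ± 68 against 636 ± 25, SD, n = 4 each; limma adjusted p = 1.91e-06). Ust, a uronyl sulphotransferase, fell to 62.3% (limma adjusted p = 0.00294). The chondroitin sulphotransferase gene Chst13 rose 2.23-fold (limma adjusted p = 9.16e-06) and the chondroitin synthase gene Chsy1 1.61-fold (limma adjusted p = 0.000406). Chst14, the dermatan sulphotransferase gene that was picked out after its values were seen, rose 1.53-fold. Of 3 tested keratan sulphate genes, B4galt1 fell to 64.2% of control and B3gnt2 rose 1.34-fold.

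For Mgp, 4 genes of the vitamin K cycle and of Gla proteins were tested, 2 rose and 0 fell, and 2 did not pass. Vkorc1, the vitamin K reductase gene, rose 1.24-fold, and Calu, the calumenin gene, whose protein restrains the carboxylase, 1.27-fold. Another Calu probe set was at -0.27 on the log2 scale, and with the mean over both the call was lost (adjusted p = 0.751 by limma). Of 2 tested mineralization regulators the phosphate transporter gene Slc20a1 rose 1.41-fold.

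Among 10 tested proteases, 3 rose, 5 fell and 2 did not pass (3 rose and 3 fell with centring). Mmp3, the stromelysin that can cleave decorin, rose 3.47-fold (limma adjusted p = 1.28e-07), whereas the aggrecanase family genes Adamts9, Adamts1 and Adamts5 fell to 51.0%, 53.2% and 66.9% of control. The Adamts9 call was lost with the mean over its probe sets (limma adjusted p = 0.0902), of which the others were at 0.28 and -0.72 on the log2 scale. Other Adamts5 probe sets above background on all arrays were at -0.60 and -0.12. Of 12 ligands and receptors, 1 rose, 6 fell and 5 did not pass, against 1 and 3 with centring. Tgfb3 fell to 30.8% of control (limma adjusted p = 5.09e-06), Ccn4 to 62.6% and P2rx7 to 66.0%, and the hyaluronan receptor gene Cd44 rose 1.39-fold. With the mean over probe sets P2rx7 and Cd44 no longer passed (limma adjusted p = 0.112 and 0.088).

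Of 10 fibrillar collagens and fibril partners, on which the small proteoglycans sit, 1 rose, 7 fell and 2 did not pass, against 1 and 5 with centring. The lysyl oxidase gene Lox fell to 50.7% of control (limma adjusted p = 9.01e-07), Tnc to 56.5%, Col5a2 to 59.1% and Col3a1 to 60.6%. The size depended on the probe set for Col5a2 and Col3a1. Their tested probe sets were at -0.76 and -0.72 on the log2 scale. Dimmer ones, above background on all arrays, were at -1.52 and -1.27. Of 8 other proteoglycan core proteins, 5 rose, 1 fell and 2 did not pass (4 and 1 with centring). Sdc1 rose 1.49-fold, Agrn 1.38-fold and Hspg2 1.45-fold, and Sdc4 fell to 56.7% of control. Hspg2 was far higher on Wt1 siRNA array 4 (14068.6) than on the others (6173.1 to 7054.9), and its call was lost on leaving out each control array in turn (limma adjusted p = 0.0664 to 0.099). Without Wt1 siRNA array 4 the Hspg2 difference was 0.27 rather than 0.54 on the log2 scale. Its other probe set, above background on all arrays, was at 0.66 and was not tested. The count of 5 that rose in this list was also 4 with quantile scaling and with no intensity trend. The list of related leucine-rich repeat matrix proteins had 1 tested gene, Podn, at 92.2% of control, which did not pass.

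**Figure D4:**
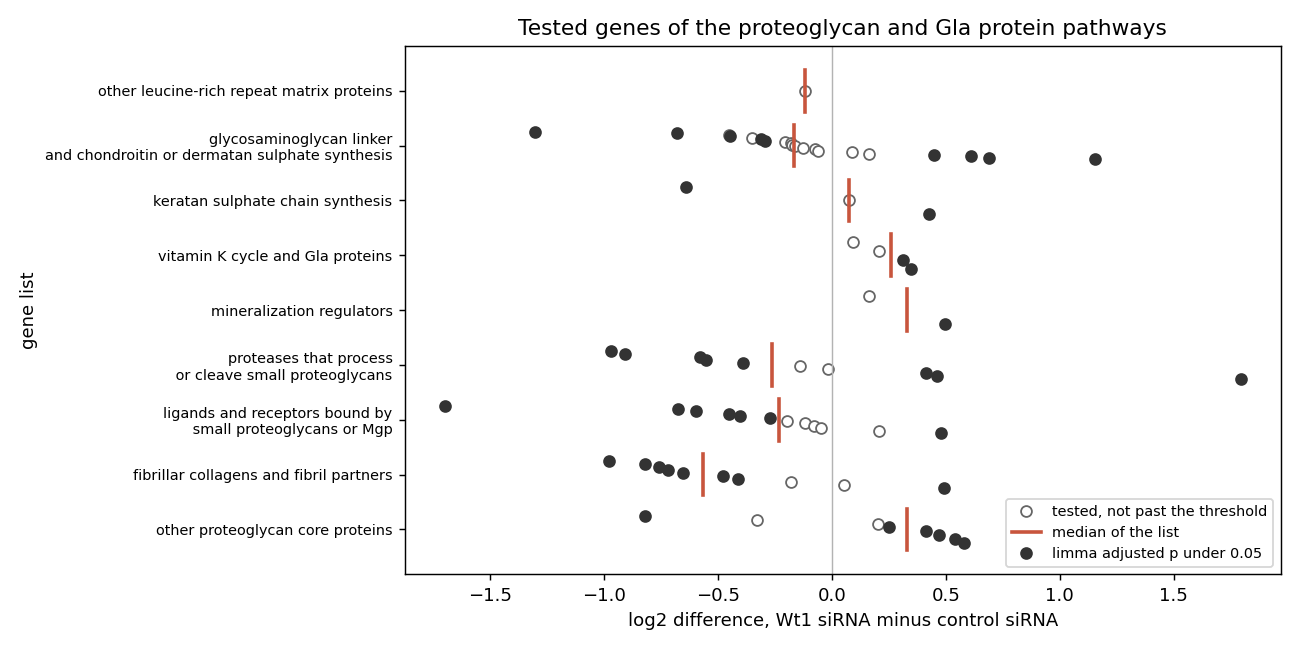
Log2 difference (Wt1 siRNA minus control siRNA) of each tested gene in 9 lists; filled circles passed a limma adjusted p under 0.05, open circles did not, and bars are list medians. Fibrillar collagens and partners lie mostly to the left and the other proteoglycan core proteins mostly to the right, while the genes of chain synthesis lie on both sides.

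Markers of the cell types that could supply these proteins were read beside them. Sums of raw signal add probe sets of unlike brightness, so a sum can follow its brightest gene. Of 8 fibroblast and kidney stroma markers, Meis1, Tcf21 and Col1a1 were above background on all arrays, Foxd1 on none and Postn on 2. Their summed signal was 23197 to 27851 in controls and 14939 to 19477 after Wt1 siRNA, and nearly all of it came from the collagen gene Col1a1 (means 24014 and 15322), the only stroma marker bright enough to be tested, which fell (limma adjusted p = 0.000212) and is also in the collagen list. The transcription factor genes Meis1 and Tcf21 were at -0.47 and -0.18 on the log2 scale, untested.

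Of 5 smooth muscle and pericyte markers, Acta2 and Des were above background throughout and Cnn1 on no array. The sums were 21163 to 23481 and 14866 to 18039 and came almost wholly from the smooth muscle actin gene Acta2 (means 21714 and 16182), which fell (limma adjusted p = 0.000882). Des and Rgs5, untested, were at -0.03 and 0.31 on the log2 scale. Of 5 endothelial markers only Kdr was above background throughout and Pecam1 was on no array (sums 2072 to 2890 and 1697 to 2043), and Kdr, the only one tested, fell (log2 difference -0.45, limma adjusted p = 0.00539). Podocyte markers (2 of 3 above background on all arrays; Nphs1 on 4 arrays) summed to 2767 to 5862 in controls and 1306 to 1837 after Wt1 siRNA. Podxl and Synpo fell (log2 differences -1.31 and -1.44, limma adjusted p = 0.00106 and 0.000209). Nphs1, untested, went the other way, at 0.24 on the log2 scale.

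The 5 kidney epithelium markers were all above background and moved in opposite directions. The adhesion gene Epcam fell by 2.10 on the log2 scale (limma adjusted p = 0.00027) and the keratin gene Krt18 by 0.19 (adjusted p = 0.0243), while Krt8 rose by 0.55 (adjusted p = 0.00949). Cdh1 and Pax8, untested, were at 0.95 and 0.02. The sums, 14212 to 16764 and 12838 to 13207, came mostly from Krt18 (means 10486 and 9160). The part of these markers in the Dcn and Mgp values was not tested, and in RNA from whole cultures fewer cells of a type and less RNA per cell cannot be told apart.

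Markers of tissues rich in the undetected members were mostly at background. Of 4 tendon markers Scx was above background on all arrays and Tnmd and Thbs4 on none, and the summed signal was 554 to 948 in controls and 622 to 963 after Wt1 siRNA. Of 5 cartilage and bone markers Sp7 was above background on all arrays and Col2a1 on none, with sums of 740.0 to 1145 and 747 to 1268. Nephron progenitor markers (Six2, Osr1 and Eya1 above background on all arrays, Cited1 on none) summed to 1353 to 2010 and 2265 to 2855, and Osr1, the only one tested, rose by 0.75 on the log2 scale (limma adjusted p = 0.00502). Leukocyte markers (Cd68 and Csf1r above background on all arrays, Ptprc and Itgam on none) summed to 2614 to 3249 and 3289 to 3477. Here too the tested genes were opposite: Cd68 rose by 0.99 on the log2 scale (limma adjusted p = 8.66e-06) and Csf1r fell by 0.76 (limma adjusted p = 0.00125).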

How the data were processed

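The authors deposited 1 intensity per probe set and array on a linear scale. The submitters' processing notes name MAS5, of unstated version. All arrays had the same mean after trimming 2% at each end, as tested on the values. Probe sets with 1 gene symbol were named from the platform annotation and updated through Entrez IDs. Each of 18193 genes was represented by its brightest probe set (mean log2 signal over all arrays), and the brighter share of 0.5 (9096 genes) was tested with limma 3.58.1 in R 4.3.3 (intensity trend, two-sided, Benjamini-Hochberg, threshold 0.05), with no further normalization, after a check on simulated data. The number of arrays limits the precision (median SE of a log2 difference 0.10).

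The members and lists were chosen with earlier results of these data known. Named genes are the members, Wt1, up to 4 called genes per list with the largest differences, and the 5 nearest profiles of Dcn and Mgp. Chst14, Slc26a2, Fam20b, Podn, the marker genes and the gene cluster neighbours were named outside this rule. Alternatives were the replicate block, quantile or median scaling, an added 16 or 64, filters of no share or 0.25, no trend, the mean over probe sets, no shared-sequence probe sets (_s_at, _x_at) and leaving out each array. Deviations from the group means correlated little between same-numbered arrays (-0.08 to 0.08), but for numbers 1, 3 and 4 the same number was still the best match. The numbers were not taken as pairs in the main fit, and this check cannot exclude pairing. Upstream windows came from RefSeq, and 14 short motifs were searched in them. Figures used matplotlib 3.10.9.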

Additional observations from a re-analysis of the deposited data

Results flagged for a closer look

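Among the named results, 2 groups of 4 arrays had a value standing apart from the other 3. Hspg2 read 14068.6 on Wt1 siRNA array 4, against 6173.1 to 7054.9 on the other treated arrays. Cp, the third nearest profile to Dcn, read 356.7 on Wt1 siRNA array 2, against 721.8 to 829.6 on the others. Array 2 was also the lowest of its group for Dcn and Mgp, which the choice of Cp by its likeness to Dcn favours. Of 78 groups examined by this gap about 1 in 20 would be picked by chance. No group of a Dcn, Mgp, Bgn or Ogn probe set was picked.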

How the results depend on the processing

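Under the 18 alternatives the log2 difference ran from -1.59 to -1.15 for Dcn, from -1.63 to -1.32 for Mgp and from -0.48 to -0.25 for Ogn. That of Bgn ran from -0.17 (mean over its probe sets) to 0.16 (median centring) and took both signs. Leaving out 1 array gave -1.59 (without Wt1 siRNA array 4) to -1.15 (without Wt1 siRNA array 2) for Dcn. With only the brightest share of 0.25 tested, Mgp and Ogn were not tested. Over all genes, 1708 were higher and 1687 lower, against 1584 and 785 with median centring and 1095 and 775 in that brightest share, where fewer genes were tested. List genes were lower in 25 cases, against 15 with median centring and 14 in the brightest share. With the replicate number as a block 1702 genes were higher and 1712 lower, and the block changed no call of a member or of a named list gene. The Wt1 difference was -2.37 to -2.19 without 1 array, where the smallest exact p possible is 0.0571. Of 31 genes named under the rule above, members and Wt1 aside, 17 were tested in all 18 alternatives. The other 14 were left untested by 1 to 3 of them (the brightest share, the mean over probe sets or no shared-sequence probe sets). In the alternatives that tested them, 26 kept direction and call, 5 lost the call at least once (Calu, Adamts9, P2rx7, Cd44 and Hspg2) and none changed direction. For the 5 dim members the signal against background sets the limit.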
